A study of Mus musculus with 9 samples.

Results

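A set of 10 genes was followed here as markers of dermal fibroblasts and of the contractile, matrix-producing myofibroblasts that arise from them in wounds: *Pdgfra*, *Dpt*, *Lum*, *Dcn*, *Postn*, *Thy1*, *Pi16*, *Cthrc1*, *Acta2* and *Fn1*. They were chosen by name, with earlier results of these data known. All 10 were found among the 17943 genes of the count table, and all 10 had enough counts to be tested. Whole skin was sequenced from 5 control mice and 4 *Supt6*-KO mice, and no fibroblasts were isolated. Control mice were *Supt6* fl/fl animals that received corn oil. *Supt6*-KO mice were K14-CreERT; *Supt6* fl/fl animals that received tamoxifen in corn oil by intraperitoneal injection once daily on consecutive days, and skin was taken on day 10 after the last injection. The K14 promoter is active in basal keratinocytes, so the gene is deleted in the epidermis and its appendages and not in fibroblasts. Both Cre and tamoxifen differ between the groups, and their effects cannot be told apart from that of *Supt6* loss. The study's text gives the tissue as dorsal skin, lesional in the *Supt6*-KO mice, whereas the sample labels give ear, call the controls wild-type and call the other group KO in the titles and knockdown in the genotype field.

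Fibroblasts build the dermis. They secrete fibrillar collagens and the proteins that bind and space them, among which decorin (*Dcn*) and lumican (*Lum*) are small leucine-rich proteoglycans and dermatopontin (*Dpt*) is a small collagen- and decorin-binding protein. *Pdgfra*, the receptor for platelet-derived growth factor A, marks nearly all of them, *Pi16* marks a progenitor-like population of the deep fascia and adventitia, and *Thy1* is a surface glycoprotein that T cells and other cells carry too. After injury fibroblasts take on smooth muscle actin (*Acta2*), fibronectin (*Fn1*), periostin (*Postn*) and collagen triple helix repeat containing 1 (*Cthrc1*), a set commonly used to recognise myofibroblasts.

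Library totals of the estimated counts were even across mice, at 29627341 to 30491197 in controls (median 29870087) and 30597189 to 30967107 after *Supt6* deletion (median 30794136). The lowest count of any of the 10 genes in any mouse was 201 (*Pi16*, *Supt6*-KO 2), so counting error was small beside the differences between mice. Values below are CPM, the counts of a gene relative to its library total, scaled by TMM, a method of edgeR that sets library sizes from the bulk of the genes. The TMM factors were 1.2 to 1.31 in controls and 0.674 to 0.91 in *Supt6*-KO mice, so the same raw count gives a higher CPM in a *Supt6*-KO mouse. The level of *Supt6* itself was 76.5 ± 17.2 CPM (SD, n = 5) across controls against 25.7 ± 3.31 CPM (SD, n = 4) across *Supt6*-KO mice, in the direction of the labels. Its log2 fold change was -1.57 with TMM, -0.76 with a correction for transcript length and -0.35 with GC content and length both corrected for (adjusted p = 1.3e-05, 0.00018 and 0.0082, edgeR). One control, control 5, had the highest control value of all 10 genes, and *Fn1*, *Pdgfra* and *Dcn*, where it was highest by a wide margin, are also given without it. Because these are bulk samples, fewer fibroblasts and less RNA per fibroblast cannot be told apart.

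All 10 genes were expressed in control skin, over a wide range. Levels of different genes were compared per transcript length, with the deposited TPM (a length-scaled share of all transcripts) values of the 5 controls. *Dcn* stood highest, with a lowest, median and highest TPM of 424, 732 and 1417, followed by *Postn* (268, 310 and 575), *Dpt* (177, 210 and 295) and *Lum* (116, 167 and 309). *Thy1* was intermediate (72.3, 87.5 and 115). *Fn1* (14.4, 25.8 and 65.7) and *Cthrc1* (15.6, 25.4 and 37.2) came next, then *Acta2* (9.53, 13.4 and 20.3) and *Pi16* (10.4, 12.5 and 22), and *Pdgfra* was lowest (3.76, 5.5 and 12.7). Within the same mouse, *Dpt* exceeded *Lum* in 4 of 5 controls, *Fn1* exceeded *Cthrc1* in 3 of 5 and *Acta2* exceeded *Pi16* in 2 of 5, so these neighbours in the order did not differ beyond their spread. Each of the other neighbouring pairs kept its order in 5 of 5 controls.

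Between the groups, the 10 genes did not move as a block. With p-values from edgeR's quasi-likelihood test adjusted by Benjamini-Hochberg across the 16426 genes that were tested, 5 of the 10 were lower in *Supt6*-KO skin at an adjusted p under 0.05 (*Fn1*, *Pdgfra*, *Thy1*, *Dcn* and *Acta2*), beside 36.8% of all genes tested. One, *Cthrc1*, was higher, beside 34.1% of all genes, and *Dpt*, *Lum*, *Postn* and *Pi16* did not pass. The median log2 fold change over the 10 genes was -0.50, against -0.07 over all genes tested. For *Fn1*, *Pdgfra* and *Thy1* every *Supt6*-KO mouse lay below every control, which held for 31.8% of all genes. No member lay wholly above the controls, which held for 28.9% of all genes. With calls this common in the table, the counts alone say little about these 10 genes.

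**Figure D1:**
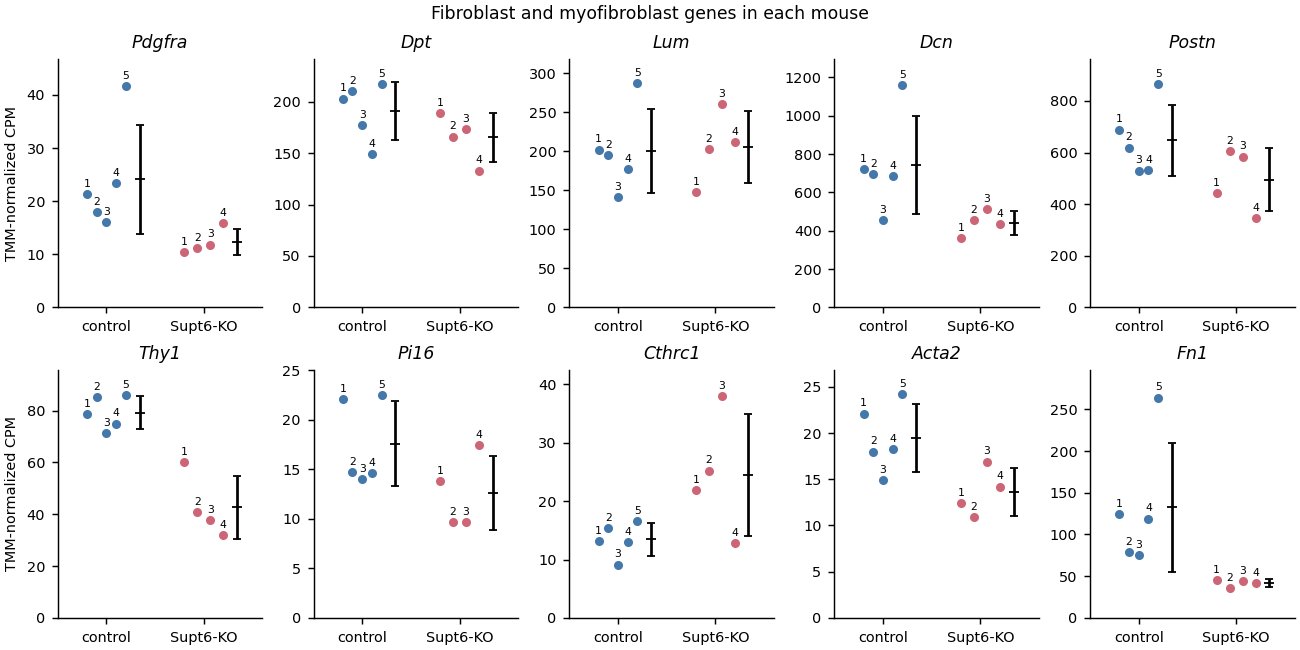
TMM-normalized CPM (linear axis from 0) of each of the 10 genes in 5 control mice (blue) and 4 *Supt6*-KO mice (red), with the replicate number over each point and the group mean and SD as a black bar. *Fn1*, *Pdgfra* and *Thy1* separate the groups, *Cthrc1* is above every control in 3 of 4 *Supt6*-KO mice, and control 5 is the highest control in all 10 panels.

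With TMM alone *Fn1* had the greatest change of the 10 genes, a rank it lost once transcript length was corrected for (-0.67, against -1.26 for *Thy1*). Fibronectin is the glycoprotein of the provisional wound matrix onto which cells pull through their integrins. *Fn1* (NCBI gene 14268; chromosome 1, 71585473 to 71653280, GRCm38) was at 124, 79.1, 75.7, 119 and 264 CPM in controls 1 to 5 and at 45.5, 35.8, 44.3 and 41.6 CPM in *Supt6*-KO mice 1 to 4. The *Supt6*-KO mice were close to each other and all below the lowest control, whereas control 5 stood far above the other 4. The difference was 3.16-fold (log2 fold change -1.66, SE 0.34, adjusted p = 0.00093, edgeR). Without control 5 it was -1.25 on the log2 scale (adjusted p = 0.00017, edgeR), and with trends in GC content and transcript length removed it was -0.13 (adjusted p = 0.64, edgeR). Of 11 integrin subunits that form or accompany fibronectin receptors, 9 were lower, 0 were higher and 2 did not pass. Among all genes tested 36.8% were lower and 34.1% higher, and the median log2 fold change of the 11 was -1.16. *Itga5*, the alpha subunit of the classical fibronectin receptor, fell from 22.4 ± 6.16 to 8.51 ± 2.99 CPM (SD, n = 5 and 4), and *Itgb5* from 116 ± 12.9 to 37.6 ± 12.5 CPM. *Itgb1*, the most abundant of them, was at -0.47 (SE 0.18, adjusted p = 0.033, edgeR), a call that ended when any of 6 of the 9 mice was left out or length was corrected for, and *Itgav* (-0.12) and *Itgb6* (-0.24) did not pass. Of the 13479 genes with a control mean of at least 1 CPM, those whose profile over the 9 mice lay nearest to that of *Fn1* were *Fndc1* and *Kirrel*, with root mean square differences of 0.14 and 0.15 on the log2 scale.

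*Pdgfra*, the receptor that marks the fibroblast lineage, was also lower in every *Supt6*-KO mouse. *Pdgfra* (NCBI gene 18595; chromosome 5, 75151322 to 75198206) was at 21.4, 17.9, 16.1, 23.4 and 41.7 CPM in controls, against 10.4, 11.2, 11.8 and 15.9 CPM in *Supt6*-KO mice. The groups did not overlap, but the highest *Supt6*-KO mouse and the lowest control were only 0.106 CPM apart. The log2 fold change was -0.96 (SE 0.27, adjusted p = 0.0073, edgeR), a 1.95-fold difference, and -0.67 (adjusted p = 0.0068, edgeR) without control 5. The call was lost with a correction for transcript length (-0.10, adjusted p = 0.68, edgeR). Of the 6 other genes of PDGF signaling, 4 were lower, 0 were higher and 2 did not pass. Among all genes tested 36.8% were lower and 34.1% higher. *Pdgfrb*, the receptor of pericytes and fibroblasts for PDGF-B, fell by 2.07 on the log2 scale (SE 0.32, adjusted p = 0.00013, edgeR), from 23.1 ± 11.6 to 5.52 ± 1.09 CPM (SD, n = 5 and 4). The receptor-like gene *Pdgfrl* fell by 1.70, and the ligand genes *Pdgfb* and *Pdgfc* fell by 1.35 and 0.62. The ligands *Pdgfa* (-0.30, adjusted p = 0.057) and *Pdgfd* (-0.27, adjusted p = 0.17) did not pass by edgeR. *Dab2* and *Rrbp1* had the profiles nearest to that of *Pdgfra* (root mean square differences of 0.13 and 0.14).

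*Dcn* and *Lum* are neighbours in the same gene cluster and the same protein family, and their values parted in these data. *Dcn* (NCBI gene 13179) spans 97479500 to 97518163 on chromosome 10 and *Lum* (NCBI gene 17022) spans 97565501 to 97572703, followed by *Kera* and *Epyc*. *Dcn* was at 721, 696, 456, 686 and 1160 CPM in controls, against 362, 457, 513 and 435 CPM in *Supt6*-KO mice. Only control 3, the lowest control, fell within the range of the *Supt6*-KO mice. The log2 fold change was -0.75 (SE 0.24, adjusted p = 0.014, edgeR), a 1.68-fold difference, and -0.53 (adjusted p = 0.023, edgeR) without control 5. *Lum* was at 202, 195, 141, 177 and 287 CPM in controls, against 148, 203, 260 and 212 CPM in *Supt6*-KO mice. The groups overlapped throughout with TMM (log2 fold change 0.04, SE 0.21, adjusted p = 0.88, edgeR). With library totals *Lum* was called lower (-0.67, adjusted p = 0.021, edgeR), as it was with GC content and length both corrected for (-0.80, adjusted p = 0.01, edgeR). *Dcn* was at -1.47 and -1.89 in these 2 fits. Within a library, where no scaling between mice enters, the ratio of *Lum* to *Dcn* CPM was 0.247 to 0.309 in the 5 controls and 0.409 to 0.507 in the 4 *Supt6*-KO mice. The ratio of *Cthrc1* to *Dcn* was likewise higher in every *Supt6*-KO mouse (0.0294 to 0.0738) than in every control (0.0143 to 0.0221), and the ratios of the other 7 genes to *Dcn* overlapped between the groups. These ratios are given as a description and were not tested. *Serping1* and *Igf1* had the profiles nearest to that of *Dcn* (root mean square differences of 0.064 and 0.10), and *Coch* and *Sema3a* those nearest to that of *Lum* (0.13 each).

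The remaining members of that family were mostly lower. Of 14 other small leucine-rich proteoglycan genes, 11 were lower, 0 were higher and 3 did not pass, with a median log2 fold change of -1.77. Among all genes tested 36.8% were lower and 34.1% higher. Fibromodulin (*Fmod*), which guides collagen fibril growth, fell from 245 ± 79.2 to 13.9 ± 2.19 CPM (SD, n = 5 and 4), a log2 fold change of -4.13 (SE 0.26, adjusted p = 3.3e-07, edgeR). *Chad* fell by 3.81, *Prelp* by 3.71 and biglycan (*Bgn*), of the same class as *Dcn*, by 3.08 on the log2 scale. *Kera*, next to *Lum*, fell by 1.56, from a control level of only 2.59 ± 0.893 CPM. *Aspn*, the third gene of that class, had 161 ± 32.1 CPM in controls against 228 ± 69.7 CPM in *Supt6*-KO mice (log2 fold change 0.50, adjusted p = 0.054, edgeR). Within the family *Aspn* had the highest log2 fold change and *Lum* the next. Several of these genes are also made by cartilage (*Chad*, *Fmod*, *Prelp*), and cartilage markers were lower in the same mice, as given further on.

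*Thy1* separated the groups with little spread among controls. *Thy1* (NCBI gene 21838; chromosome 9, 44043384 to 44048579) was at 78.6, 85.3, 71.2, 75 and 85.9 CPM in controls, against 60, 40.7, 37.8 and 32 CPM in *Supt6*-KO mice. The groups did not overlap, and *Supt6*-KO 1 lay nearest to the controls. The log2 fold change was -0.89 (SE 0.17, adjusted p = 0.00061, edgeR), a 1.86-fold difference. In mice *Thy1* is also carried by T cells, including those of the epidermis, so T cell genes were read beside it. Of the 8 T cell markers in the table, 4 were lower, 1 was higher and 3 did not pass (beside 36.8% lower and 34.1% higher among all genes tested), and their summed level was 36.6 to 50.8 CPM in controls and 17.9 to 25.2 CPM in *Supt6*-KO mice. None of the 8 was at 0 in either group, and the most abundant was *Cd3g*, which fell from 15.4 ± 2.7 to 2.46 ± 0.964 CPM (SD, n = 5 and 4). *Cd3e* fell by 4.13 on the log2 scale, *Lck* changed by -0.23 (adjusted p = 0.31, edgeR) and *Cd5* rose by 2.36. The part of T cells in the difference of *Thy1* was not tested. The profiles nearest to that of *Thy1* were those of *Gpr157* and *Igfbp6* (root mean square differences of 0.11 and 0.13).

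*Cthrc1*, a secreted protein induced in activated fibroblasts, was the only member called higher. *Cthrc1* (NCBI gene 68588; chromosome 15, 39076932 to 39087121) was at 13.2, 15.4, 9.11, 13 and 16.6 CPM in controls, against 21.9, 25.2, 37.9 and 12.8 CPM in *Supt6*-KO mice. In 3 of the 4 *Supt6*-KO mice the level exceeded every control and in the remaining one, *Supt6*-KO 4, it was within their range. The log2 fold change was 0.86 (SE 0.27, adjusted p = 0.014, edgeR). It was 0.57 (adjusted p = 0.067, edgeR) without *Supt6*-KO 3, the mouse with the highest value, and 1.07 (adjusted p = 0.00092, edgeR) without *Supt6*-KO 4. With library totals in place of TMM it was 0.11 (adjusted p = 0.70, edgeR), and with a correction for transcript length it was 0.035 (adjusted p = 0.91, edgeR). *Ecscr* and *Gbp3* had the nearest profiles (root mean square differences of 0.19 and 0.20).

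*Postn*, a matricellular protein that binds integrins and collagen, did not follow *Cthrc1*. *Postn* (NCBI gene 50706; chromosome 3, 54359267 to 54391041) was at 689, 619, 530, 533 and 865 CPM in controls, against 444, 607, 584 and 346 CPM in *Supt6*-KO mice. *Supt6*-KO 2 and 3 lay among the controls, and *Supt6*-KO 1 and 4 below them. The log2 fold change was -0.39 (SE 0.21, adjusted p = 0.12, edgeR). *Gjc1* and *Phldb2* had the nearest profiles (root mean square difference of 0.14 each). Of 20 other genes of the provisional and wound matrix, 7 were lower, 9 were higher and 4 did not pass, with a median log2 fold change of -0.27, beside 36.8% lower and 34.1% higher among all genes tested. Among those higher were osteopontin (*Spp1*), from 5.4 ± 1.02 to 45.3 ± 23.7 CPM (SD, n = 5 and 4), the urokinase receptor *Plaur* (log2 fold change 2.16), the hyaluronan receptor *Hmmr* (2.05) and the glycoprotein tenascin-C (*Tnc*, 1.07). With library totals *Tnc* was at 0.38 (adjusted p = 0.31, edgeR), and without *Supt6*-KO 4 *Hmmr* was at 0.96 (adjusted p = 0.0029, edgeR). The syndecan *Sdc1*, the most abundant of the list and also a keratinocyte gene, was higher by 0.58 with TMM and changed by -0.067 with library totals. Among those lower were the matricellular proteins *Ccn2* (-1.35) and *Thbs1* (-1.31), both commonly used as readouts of TGF-β signaling, and *Col5a3* (-2.10). The 8 genes of TGF-β ligands and receptors themselves were lower in 7 cases, among them *Tgfb2* (-2.61) and *Tgfb3* (-1.36), and higher in 1, *Tgfbr1* (0.48, SE 0.13, adjusted p = 0.0052, edgeR), which turned to -0.20 (adjusted p = 0.31, edgeR) with library totals.

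*Acta2*, the smooth muscle actin of myofibroblasts, blood vessels and hair erector muscles, was lower by a small margin. *Acta2* (NCBI gene 11475; chromosome 19, 34240336 to 34255585) was at 22.1, 18, 14.9, 18.3 and 24.2 CPM in controls, against 12.4, 10.9, 16.9 and 14.2 CPM in *Supt6*-KO mice. Control 3 and *Supt6*-KO 3 overlapped, and the other mice were separated by group. The log2 fold change was -0.52 (SE 0.18, adjusted p = 0.021, edgeR), a 1.43-fold difference. The call was lost without *Supt6*-KO 1 (-0.48, adjusted p = 0.056, edgeR) or *Supt6*-KO 2 (-0.44, adjusted p = 0.058, edgeR), and with a GC correction (-0.39, adjusted p = 0.060, edgeR). A block on replicate number ended it too (-0.44, adjusted p = 0.073, edgeR), although the numbers did not pair the mice. No stretch of 100 bases of the *Acta2* transcript was shared with another gene, so reads of that length from other actins do not match it exactly.

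The other actins spanned a wide range. Skeletal *Acta1* fell from 1473 ± 217 to 234 ± 37.1 CPM (SD, n = 5 and 4) and cardiac *Actc1* from 27 ± 6.29 to 1.2 ± 0.114 CPM, whereas the cytoplasmic actins *Actb* (log2 fold change -0.22) and *Actg1* (-0.02) did not pass. Smooth muscle *Actg2* was higher by 1.20 (SE 0.41, adjusted p = 0.020, edgeR), at under 1 CPM in both groups, and by 0.52 (adjusted p = 0.31, edgeR) with library totals. Of 19 genes of the contractile apparatus and its SRF-MRTF regulators, 12 were lower, 3 were higher and 4 did not pass. Among all genes tested 36.8% were lower and 34.1% higher, and the median log2 fold change of the 19 was -0.82. The regulators *Srf* (log2 fold change -0.76), *Mrtfa* (-1.65) and *Mrtfb* (-1.71) and the tropomyosin *Tpm1* (-1.77) were lower. *Fhl2*, a LIM-domain protein, rose from 2.96 ± 0.565 to 65.4 ± 6.88 CPM (SD, n = 5 and 4), *Tpm4*, the most abundant of the list, rose by 1.39, and *Tagln*, a smooth muscle and myofibroblast gene, was higher by 0.65 with TMM (SE 0.21, adjusted p = 0.015, edgeR) but not with library totals (-0.087, adjusted p = 0.67, edgeR). Of 13 further smooth muscle and pericyte markers, 8 were lower, 2 were higher and 3 did not pass, beside the same 36.8% and 34.1% of all genes. Their summed level was 397 to 469 CPM in controls and 151 to 204 CPM in *Supt6*-KO mice. *Myh11*, which defines mature smooth muscle, fell from 3.76 ± 1.62 to 1.24 ± 0.324 CPM, *Des*, the most abundant and also a skeletal muscle gene, fell by 1.79, and the pericyte genes went both ways. Of these *Abcc9* (-2.31), *Cspg4* (-2.14) and *Notch3* (-1.77) were lower, *Higd1b* was higher (1.74) with overlapping groups, and *Rgs5* (-0.15) and *Kcnj8* (-0.15) did not pass. With GC and length removed *Cspg4* was at -0.21, *Notch3* at 0.13 and *Higd1b* at 0.53 (adjusted p = 0.47, 0.41 and 0.15, edgeR). None of the 13 was at 0 in either group. The part of vessel or erector muscle in the difference of *Acta2* was not tested.

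Promoter windows of 300 bases, from 250 before to 50 after an annotated start (RefSeq, GRCm38.p6), were held for 5 of the 10 genes, *Pdgfra*, *Dpt*, *Postn* (with 2 starts), *Pi16* and *Acta2*. They were searched on both strands for the CArG box that SRF binds, for TATAAA, for the AP-1 site TGANTCA and for the MCAT site CATTCC that TEAD factors bind, none of which overlapped in these windows. No member window held an exact CArG box or TGANTCA, which stood in 1.63% and 7.81% of all 32851 windows. TATAAA stood in 2 of the 6 member windows (13.6% of all) and CATTCC in 1 (14.7% of all). The matching stretches are shown 5′ to 3′ on the strand of the gene with the matched letters in capitals, at chr1:164796663-164796692 and chr3:54361069-54361098 on the forward strand and chr19:34255502-34255531 on the reverse strand, since they are what the windows of the contractile and matrix members hold of these motifs. In *Acta2* the match is to the complementary strand and therefore reads GGAATG. A match is a description of the letters and not a bound site. A site that departs from the exact motif is missed by this search, so a window without a match may still be bound.
Dpt: cagcggcagctgTATAAAgtcagcccagca
Postn: agcccagagctaTATAAActcagctctcca
Acta2: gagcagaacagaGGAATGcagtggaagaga

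*Dpt* and *Pi16*, which are used for the universal and progenitor-like fibroblasts of many tissues, did not pass. *Dpt* (NCBI gene 56429; chromosome 1, 164796663 to 164824274) was at 203, 210, 177, 149 and 217 CPM in controls, against 189, 166, 173 and 133 CPM in *Supt6*-KO mice, with broad overlap (log2 fold change -0.21, SE 0.15, adjusted p = 0.22, edgeR). *Pi16* (NCBI gene 74116; chromosome 17, 29318796 to 29328903) was at 22.1, 14.7, 14, 14.6 and 22.5 CPM in controls, against 13.8, 9.64, 9.7 and 17.4 CPM in *Supt6*-KO mice. Of the 4 *Supt6*-KO mice 3 were lower than any control, but *Supt6*-KO 4 was above 3 controls (log2 fold change -0.48, SE 0.23, adjusted p = 0.080, edgeR). Without that mouse its log2 fold change was -0.68 (adjusted p = 0.015, edgeR), and it was -0.11 with the length correction, -0.13 with the GC correction and 0.30 with both (adjusted p = 0.65, 0.60 and 0.17, edgeR). Of the 100-base stretches of *Pi16*, 3.23% also occurred in another annotated gene, so a small part of its reads could have been split, and the same held for 1.83% of those of *Fn1*. *Fndc4* and *Baalc* had the profiles nearest to that of *Dpt* (root mean square differences of 0.1 and 0.11), and *Ddah1* and *Xxylt1* those nearest to that of *Pi16* (0.15 and 0.17).

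Of 15 genes that accompany *Pi16* in progenitor-like fibroblasts, 7 were lower, 4 were higher and 4 did not pass, with a median log2 fold change of -0.33, beside 36.8% lower and 34.1% higher among all genes tested. *Dpp4*, the surface peptidase often used to sort these cells, rose from 5.74 ± 1.37 to 31.2 ± 13.8 CPM (SD, n = 5 and 4) and *Ly6a*, which encodes Sca-1, from 155 ± 12.1 to 414 ± 87.8 CPM. *Plac8* (log2 fold change 3.87) and *Anxa3* (1.93) were higher as well, and these 4 genes are also expressed by leukocytes or epithelial cells. Lower were, among others, *Efhd1* (-2.36, from 2.88 ± 0.791 to 0.554 ± 0.282 CPM), *Pcsk6* (-1.92) and *Cd55* (-1.17). *Cd34* (-0.35, adjusted p = 0.047) and *Sema3c* (-0.40, adjusted p = 0.038, both edgeR) were lower too. Their calls ended when any of 7 and 5 of the 9 mice, respectively, was left out, and *Sema3c* was at 0.25 after the length correction. *Mfap5*, an elastic microfibril gene often paired with *Pi16*, did not pass (-0.33, adjusted p = 0.13, edgeR).

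Other genes that fibroblasts in general express were mostly lower. Of 20 pan-fibroblast genes, 16 were lower with TMM, 0 were higher and 4 did not pass, with a median log2 fold change of -1.82. Among all genes tested 36.8% were lower and 34.1% higher. In all 16 every *Supt6*-KO mouse lay below every control, which held for 31.8% of all genes. *Col1a1* fell from 874 ± 642 to 70 ± 17.9 CPM (SD, n = 5 and 4; log2 fold change -3.64, SE 0.50), *Col6a2* by 3.07 and *Sparc*, the most abundant, from 4459 ± 789 to 1173 ± 117 CPM. *Col3a1*, the other main fibrillar collagen of skin, was at 2112 ± 941 and 1710 ± 604 CPM (log2 fold change -0.31, adjusted p = 0.43, edgeR). *Twist2* (0.17), *Twist1* (-0.36) and *Col6a3* (-0.49) did not pass either. With GC content and length both corrected for, *Col3a1* and *Col6a3* were called higher, as given further on. Of 24 genes of elastic fibres and fibril assembly, 18 were lower, 1 was higher and 5 did not pass, with a median of -1.22. These counts stand beside the same 36.8% and 34.1% of all genes. Elastin (*Eln*) fell from 838 ± 334 to 59.7 ± 6.99 CPM and *Ltbp4*, which takes part in its assembly, by 3.92 on the log2 scale. The crosslinking enzyme *Lox* (-0.25) and the collagen chaperone *Serpinh1* (-0.22) did not pass. *Fbln1* was higher by 0.62 with TMM and at -0.045 with library totals. Cartilage markers were lower in the same mice, as given further on, and the part of cartilage in these differences was not tested. Of 14 genes of papillary and reticular fibroblasts, 10 were lower, 0 were higher and 4 did not pass (median -0.93), beside the same shares of all genes. Lower among them were *Plagl1* (-2.31), the Wnt target *Axin2* (-1.81) and *Cav1* (-1.25), the most abundant.

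Of 16 genes of the dermal papilla, the fibroblast cluster at the base of the hair follicle, 9 were lower, 4 were higher and 3 did not pass, with a median log2 fold change of -1.26. Among all genes tested 36.8% were lower and 34.1% higher. *Corin* fell from 49.2 ± 18.7 to 5.06 ± 0.819 CPM (SD, n = 5 and 4), *Wif1*, a Wnt inhibitor, from 495 ± 104 to 85.6 ± 5.03 CPM, and *Bmp4* and *Nog* by 2.79 and 2.59 on the log2 scale. *Inhba* (1.97) and *Prdm1* (1.14), both also keratinocyte genes, were higher in every *Supt6*-KO mouse, *Prdm1* without passing under library totals (0.39, adjusted p = 0.076, edgeR). Of 15 growth factors and chemokines that fibroblasts secrete, 4 were lower, 3 were higher and 8 did not pass, with a median of 0.34, beside the same 36.8% and 34.1% of all genes. *Fgf10* fell by 1.48 and the BMP inhibitor *Grem1* by 2.82, *Lif* and *Ccl19* were higher by 1.73 and 1.32 (*Ccl19* by 0.64 with library totals, adjusted p = 0.057, edgeR), and *Fgf7* (0.49, adjusted p = 0.060), *Cxcl12* (0.38, adjusted p = 0.082) and *Il33* (1.22, adjusted p = 0.053, all edgeR) did not pass. Without *Supt6*-KO 4 *Il33* was at 0.041.

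Markers of other tissues moved in the same mice, and their values stand here beside the fibroblast genes. Their counts of calls stand beside 36.8% lower and 34.1% higher among all genes tested. All 12 tested cartilage markers were lower (median log2 fold change -3.08), with a summed level of 607 to 1322 CPM in controls and 117 to 150 CPM in *Supt6*-KO mice. Their most abundant gene was *Acan* (154 ± 83.8 and 13.2 ± 2.02 CPM), and *Col2a1*, which defines cartilage, had 72.9 ± 37.4 CPM in controls against 5.01 ± 0.61 CPM in *Supt6*-KO mice (SD, n = 5 and 4). One marker outside the test, *Matn1*, had 1 count over all 9 mice, in a control. Cartilage is present in ear and absent from dorsal skin. Of 12 skeletal muscle markers 11 were lower and 0 higher, with sums of 5339 to 7144 and 1183 to 1956 CPM and *Acta1* the most abundant, and of 10 adipocyte markers 8 were lower and 0 higher, with sums of 748 to 954 and 423 to 569 CPM and *Fabp4* the most abundant. Of 10 Schwann cell markers 9 were lower and 0 higher, with sums of 369 to 508 and 112 to 205 CPM, and *Mbp* was the most abundant. Of 12 endothelial markers 10 were lower and 1 was higher, with sums of 98.7 to 219 and 72.4 to 92.3 CPM, and *Pecam1* was the most abundant.

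Leukocyte and keratinocyte genes went the other way or both ways. Of 12 leukocyte markers 9 were higher, 1 was lower and 2 did not pass, beside 34.1% higher and 36.8% lower among all genes tested. Their sum rose from 190 to 331 CPM in controls to 3157 to 7579 CPM in *Supt6*-KO mice. In *Supt6*-KO mice most of that sum was *S100a9* and *S100a8*, which stressed keratinocytes also make. The pan-leukocyte gene *Ptprc* did not pass (18.3 ± 1.36 and 21.7 ± 5.41 CPM; SD, n = 5 and 4) and was lower with library totals (-0.49, adjusted p = 0.013, edgeR), while of the myeloid genes *Lyz2* and *Cd14* rose by 2.79 and 4.05 on the log2 scale, *Csf1r* fell by 1.83 (from 41.9 ± 12.2 to 11.8 ± 3.17 CPM; SD, n = 5 and 4) and *Cd163* did not pass (-0.016, adjusted p = 0.97, edgeR). Of 12 keratinocyte markers 5 were lower, 3 were higher and 4 did not pass. Beside the same 36.8% lower and 34.1% higher, that count alone says little about them. Their sum, led by *Krt10*, was 27427 to 31151 CPM in controls and 38860 to 45789 CPM in *Supt6*-KO mice with TMM. With library totals that sum overlapped between the groups (33442 to 38590 and 26183 to 41541 CPM). Apart from *Matn1*, no marker of these 7 lists was at 0 in either group. The part of a different tissue composition in the differences of the 10 genes was not tested.

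Transcript length ran with the fold changes over the whole table, and some but not all of the 10 genes lay near the median of genes of their length. Among genes with a control mean above 1 CPM, grouped by length into 5 bins of near equal size, the median log2 fold change was 0.88 in the bin of the shortest transcripts (up to 1794 bases) and -0.87 in the bin of the longest (from 5142 bases). *Cthrc1* (1166 bases, log2 fold change 0.86) and *Pdgfra* (6834 bases, -0.96) lay at the medians of their bins. *Fn1* (8315 bases, -1.66) lay below the median of its bin, *Lum* (0.04), *Postn* (-0.39) and *Pi16* (-0.48) lay near theirs (0.20, -0.13 and -0.39), and *Acta2* lay below its own (0.20). The short transcripts of *Dcn* (1758 bases), *Thy1* (1735 bases) and *Dpt* (1724 bases) lay far below the 0.88 of theirs. GC content ran with the fold changes too, with medians of 0.47 in the bin of lowest GC (up to 44.4%) and -0.65 in that of highest (from 56%).

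Removing these trends from each mouse changed which of the 10 genes were called. Beside the lost calls of *Pdgfra* and *Cthrc1*, with a length correction *Fn1* was at -0.67 (adjusted p = 0.034) and *Dpt* was called lower (-0.58, adjusted p = 0.0038, both edgeR). With GC and length removed together the call of *Fn1* was lost and *Lum* (-0.80, adjusted p = 0.010), *Dpt* (-0.80, adjusted p = 0.00057) and *Postn* (-0.68, adjusted p = 0.014, all edgeR) were called lower. With library totals in place of TMM the median of all genes was -0.759, 54.6% of all genes were called lower and 16.9% higher, and 9 of the 10 genes were called lower and 0 higher. Among the other genes named above, the calls of *Itgb1*, *Pdgfc*, *Ccl19*, *Actg2*, *Tagln*, *Thbs1*, *Higd1b* and *Sema3c* were lost with the length correction, those of *Pdgfc*, *Cd34*, *Srf* and *Tgfbr1* with the GC correction, and those of *Itga5*, *Pdgfb*, *Pdgfc*, *Ly6a*, *Col5a3*, *Ccl19*, *Actg2*, *Tagln*, *Thbs1*, *Myh11*, *Cspg4*, *Notch3*, *Higd1b*, *Srf* and *Sema3c* with both, while *Itgav* was called higher with the length correction (0.73, adjusted p = 5.1e-05, edgeR) and *Col3a1* (0.81, adjusted p = 0.037) and *Col6a3* (1.19, adjusted p = 0.0012, both edgeR) with both. *Dcn* and *Thy1* were lower with an adjusted p under 0.05 under all 19 alternatives, which gave log2 fold changes of -1.89 to -0.52 for *Dcn* and -1.60 to -0.51 for *Thy1*.

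**Figure D2:**
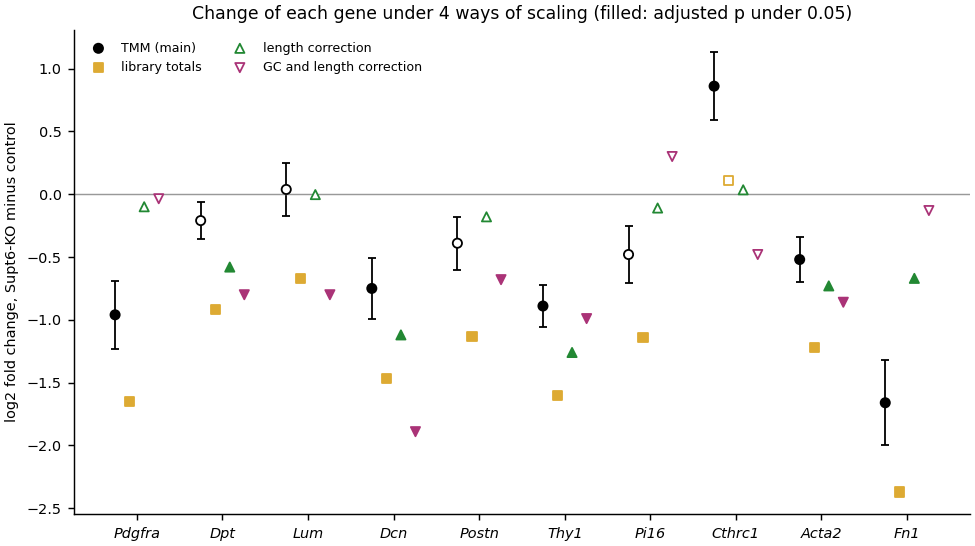
Log2 fold change (*Supt6*-KO minus control) of the 10 genes with TMM (black, with SE), library totals (yellow), a length correction (green) and a GC and length correction (purple); filled symbols have an adjusted p under 0.05 in edgeR. *Dcn*, *Thy1* and *Acta2* are below 0 and filled under all 4 drawn, and with length and GC removed *Pdgfra* and *Fn1* move toward 0 and *Cthrc1* passes from 0.86 to -0.48.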

How the data were processed

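RNA from the skin of 9 mice was sequenced by the authors as paired reads, aligned to mm10 with Bowtie2 (2.3.4.3) and summarised per gene with RSEM (1.3.1), and the submitters' processing notes also name HISAT and DESeq2 (1.4.5). The deposited estimated counts were not normalized between mice, 9% differed from a whole number by more than 0.001, and all were rounded. The authors deposited TPM values for 6 of the 9 samples, used here only for levels within controls. Of 17943 identifiers, 17917 matched a RefSeq gene (GRCm38) and 26 did not. The annotation release is not given in the sources used here.

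Genes with a summed count under 10 over the 9 mice were left out. edgeR 4.0.16 (R 4.3.3) was fitted with TMM factors and no covariates, and its quasi-likelihood test, and p-values were adjusted by Benjamini-Hochberg across all tested genes. The SE is the absolute log2 fold change divided by the square root of F. The labels number the mice but do not say that they were separate litters or cages, so p-values measure only the spread between these mice. The 10 genes and the gene lists were chosen with earlier results of these data known. A few genes (*Pdgfrb*, *Vcan*, *Tgfbi*, *Fgf7*, *Fgf10*, *Eng*, *Acta1*, *Actg2*) are in 2 lists. Named besides the 10 genes and *Supt6* were, in each list, up to 4 called genes without overlap between groups, with at least 1 CPM and the largest changes, the most abundant gene, the 2 nearest profiles of each member (log2 of CPM + 0.5, minus the control mean) and, chosen after their values were seen, further genes with a known role. The nearest profiles of *Acta2* are not reported here.

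Alternatives were library totals, upper-quartile factors, DESeq2 1.42.0, other filters, a fit without the 50 most abundant genes, a length correction, a replicate block and each mouse left out, and, added after seeing the data, GC corrections. A correction is each mouse's lowess trend of log2 ratio to the mean of all mice, entered as an offset. Lengths and GC are of GENCODE M21 transcripts, for 97.9% of genes. On simulated data with 200 changed genes and no trend in length or GC, edgeR recovered 98% of 2-fold changes and called 7 unchanged genes. There 16429 genes were tested, changed ones included. Far more genes were called in the real data, which also hold such trends, so these figures do not measure the error rates there. Tables used Python 3.11.15 and pandas 2.3.3.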

Additional observations from a re-analysis of the deposited data

Results flagged for a closer look

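Single mice stood apart from the rest of their group by Dixon's 95% criterion in 8 of 72 groups of values examined, where chance gives about 3.6. The groups share mice and some genes, so they are not independent and that number is only a rough guide. Control 5 was high for *Fn1* (264 CPM, control median 119) and *Pdgfra* (41.7 CPM, median 21.4), and for the summed levels of the dermal papilla genes (878 CPM, median 616), of the smooth muscle and pericyte markers (469 CPM, median 406) and of the PDGF genes (135 CPM, median 91.5). *Supt6*-KO 4 was high for the summed level of the contractile genes (1993 CPM, *Supt6*-KO median 1475) and of the growth factors and chemokines (551 CPM, median 187). *Supt6*-KO 3 was high for the summed level of the adipocyte markers (569 CPM, median 444).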

How the results depend on the processing

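Of the 10 genes, *Dcn* and *Thy1* kept both direction and call under all 19 alternatives, *Fn1* kept its call under 18, *Pdgfra* under 17, and *Acta2* and *Cthrc1* under 15 each. With library totals 8970 genes were lower and 2771 higher, against 6050 and 5608, and of the 10 genes 9 were lower and 0 higher. Requiring a 2-fold change left 4088 genes lower and 3427 higher. Of the 10 genes, 0 were higher with the length correction or the GC and length correction, and between 0 and 1 when one mouse was left out. The direction of *Lum* turned with library totals (-0.67), upper-quartile factors (-0.048), at least 10 counts in every mouse (-0.014), the length correction (-0.0031), the GC correction (-0.34) and both corrections (-0.80), and ran from -0.10 to 0.20 when one mouse was left out. With both corrections *Pi16* turned to 0.30, *Cthrc1* to -0.48 and *Tgfbr2* to 0.18. Other named genes that turned with library totals were *Sdc1* (-0.067), *Krt10* (-0.55), *Fabp4* (-0.23), *Aspn* (-0.24), *Cxcl12* (-0.30), *Fbln1* (-0.045), *Fgf7* (-0.20), *Ptprc* (-0.49), *Tagln* (-0.087), *Tgfbr1* (-0.20) and *Twist2* (-0.53). With the length correction these were *Fabp4* (-0.51), *Col3a1* (0.42), *Col6a3* (0.59), *Itgav* (0.73), *Itgb6* (0.28), *Lox* (0.31), *Rgs5* (0.26) and *Sema3c* (0.25). With the GC correction these were *Fabp4* (-0.0052), *Actg1* (0.26), *Aspn* (-0.37), *Fgf7* (-0.12), *Kcnj8* (0.17), *Lck* (0.10), *Ptprc* (-0.072), *Serpinh1* (0.20) and *Twist1* (0.25). With both these were *Fabp4* (-1.55), *Aspn* (-0.88), *Col3a1* (0.81), *Col6a3* (1.19), *Fgf7* (-0.51), *Itgav* (0.39), *Kcnj8* (0.082), *Notch3* (0.13), *Serpinh1* (0.05) and *Srf* (0.14). *Actg1* turned with DESeq2 (0.039) and ran from -0.38 to 0.099 when one mouse was left out. *Cd163*, near 0 with TMM (-0.016), turned with the length correction (0.48), the GC correction (0.049), both (0.42), the replicate block (0.52) and DESeq2 (0.051), and ran from -0.25 to 0.49 when one mouse was left out. Leaving out single mice in turn ended the calls of *Cd34* for 7 of 9 mice, *Itgb1* for 6, *Fbln1* and *Sema3c* for 5 each, *Tagln* for 2 and *Actg2* for 1. It brought below the threshold *Il33* for 3 mice, *Aspn*, *Cxcl12*, *Fgf7* and *Pdgfa* for 2 each, and *Actb*, *Actg1*, *Fabp4*, *Itgb6*, *Krt10*, *Mfap5*, *Ptprc* and *Twist1* for 1 each. The cause of these changes was not tested. For the 139 other named genes of the lists, 2454 of 2630 values kept direction and side of the threshold. Numbers in the labels did not pair the mice (correlation of same-numbered deviations -0.011 to 0.243, 1 control best with its own number). With the replicate block 5800 genes were lower and 5251 higher, and *Acta2* was no longer called (-0.44, adjusted p = 0.073, edgeR).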
